A study of Mus musculus with 6 samples.

Results

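The 10 genes described here carry glucose into the cell and through glycolysis. They encode the glucose transporter GLUT1 (Slc2a1), the hexokinases Hk1 and Hk2, the platelet-type phosphofructokinase Pfkp, aldolase A (Aldoa), phosphoglycerate kinase 1 (Pgk1), enolase 1 (Eno1), the muscle-type pyruvate kinase gene Pkm, lactate dehydrogenase A (Ldha) and pyruvate dehydrogenase kinase 1 (Pdk1). They were picked by gene symbol as genes of glycolysis and of hypoxia-linked metabolism, and all 10 were found among the 23420 genes of the count table, of which 16807 had at least 1 read. Mesenchymal stromal cells (MSCs) are adherent, fibroblast-like cells, here grown from the bone marrow of young female C57BL/6 mice in AMEM with serum. MSC-TPr were MSCs transduced with an AP2 retrovirus that carries the thymoproteasome (TPr) subunits β1i, β2i and β5t with eGFP as a marker. Ctl MSC went through the same transduction with the empty AP2 backbone, so both groups share the viral exposure. Polyadenylated RNA was sequenced from 3 libraries of each group, and the comparison asks what TPr expression does to the transcriptome of MSCs. The labels do not say whether the 3 libraries of a group came from separate cultures, so p-values measure only the spread between these libraries, which may be technical.

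Glycolysis splits glucose into pyruvate in the cytosol. Hexokinase traps glucose as its 6-phosphate, phosphofructokinase takes the committed step, and aldolase, phosphoglycerate kinase, enolase and pyruvate kinase carry the carbon on to pyruvate. Ldha then reduces pyruvate to lactate, whereas Pdk1 phosphorylates and inhibits the pyruvate dehydrogenase complex and so limits the entry of pyruvate into mitochondria. Many of these genes are known targets of the hypoxia-inducible factor HIF-1, which binds DNA at a short core with the letters ACGTG or GCGTG.

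The promoters were searched for that core because it is the sequence these genes are best known to share. RefSeq (GRCm38.p6) gave 18 start sites for the 10 genes, and the 250 bases before each start were read on both strands. ACGTG or GCGTG was present in 14 of the 18 windows and in at least 1 window of all 10 genes, against 38.6% of all 32851 windows and 41.5% of all 27025 genes. These backgrounds were matched neither for GC content nor for the number of windows per gene, so the contrast does not measure enrichment of the core. The following 60-base stretches, each outside annotated exons and written 5′ to 3′ on the strand of the gene, show the core in capitals. Ldha and Pdk1 are shown because they spread most between libraries, Slc2a1 and Aldoa because they spread least, and Pgk1 and Hk2 as genes between them.
Ldha: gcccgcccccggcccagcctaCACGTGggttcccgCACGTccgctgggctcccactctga
Pgk1: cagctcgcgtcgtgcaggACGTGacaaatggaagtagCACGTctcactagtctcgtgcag
Aldoa: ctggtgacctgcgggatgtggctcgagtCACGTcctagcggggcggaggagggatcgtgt
Pdk1: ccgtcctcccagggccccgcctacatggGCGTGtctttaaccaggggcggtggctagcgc
Hk2: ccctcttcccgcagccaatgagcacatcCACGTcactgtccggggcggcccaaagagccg
Slc2a1: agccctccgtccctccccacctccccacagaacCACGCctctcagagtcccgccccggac

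The Ldha stretch lies at chr7:46845735-46845794 on the plus strand, 69 to 10 bases before the start. It holds CACGTG, which contains ACGTG on both strands, followed by a further core, and it was the only one of the 18 windows with CACGTG (6.02% of all windows). The Pgk1 stretch, at chrX:106186932-106186991 on the plus strand, holds ACGTG once on each strand. Aldoa (chr7:126799349-126799408, minus strand), Hk2 (chr6:82774475-82774534, minus strand), Pdk1 (chr2:71873118-71873177, plus strand) and Slc2a1 (chr4:119108651-119108710, plus strand) hold 1 core each in the stretch shown. GGGCGG, the letters of a GC box that Sp1-family factors recognise, was found in 11 of the 18 windows, against 32.7% of all windows, and in 9 of the 10 genes, against 35.4% of all genes. All 10 genes held the core and only stretches with it are shown, so the stretches say nothing about the spread between libraries. A match of letters is a description, not a binding site.

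The libraries held 16158756 to 22158887 reads on genes, and 3 reads, the limit used for detection, corresponded to 0.139 to 0.181 CPM (reads scaled to the TMM-adjusted size of the library). Every one of the 10 genes was far above that limit, from 369 reads for Pfkp in MSC-TPr 1 to 42414 reads for Pkm in MSC-TPr 3. Part of the genes did not follow the labelled groups. Others did, as 10.6% of all genes tested had every MSC-TPr library above every Ctl MSC library, and 12.1% had the reverse. Summed over 16 cell division genes such as Mki67 and Cdk1, Ctl MSC 1, 2 and 3 held 1946, 203 and 201 CPM, and MSC-TPr 1, 2 and 3 held 206, 1748 and 1873 CPM. The library numbered 1 of each group thus stood apart from the other two of its group. The transduced genes did not follow the labels either. Reads on Psmb10, which encodes β2i, came to 27.8, 8.81 and 8.38 CPM across the Ctl MSC libraries, against 8.97, 17.3 and 15.2 CPM across MSC-TPr, and Psmb11, which encodes β5t, had 6 reads or fewer in each library. Directions below are therefore between the libraries labelled MSC-TPr and those labelled Ctl MSC, and each fold change is given over all 6 libraries and over the 4 numbered 2 and 3. Whether the titles of Ctl MSC 1 and MSC-TPr 1 were exchanged was not tested, and an exchange would change what every value over 6 libraries compares. The 9 MSC markers summed to 881 to 1920 CPM in Ctl MSC and to 697 to 1475 CPM in MSC-TPr. Cd44, Eng, Ly6a, Pdgfra, Pdgfrb and Vcam1 stood at 30.7 CPM or more in every library, Lepr at 2.13 CPM or less, and Thy1 (CD90) at 0 in 5 libraries and at 1 read in Ctl MSC 1. Nt5e (CD73) had 11.4, 20.2 and 17.4 CPM across the Ctl MSC libraries, against 2.66, 4.20 and 5.24 CPM across MSC-TPr, with a log2 change of -2.02 (edgeR adjusted p = 0.0790, DESeq2 adjusted p = 2e-05) and of -1.99 without the libraries numbered 1. The 10 haematopoietic markers summed to no more than 1.33 CPM in any Ctl MSC library and 1.39 CPM in any MSC-TPr library, with Adgre1 and Cd3e among those at 0 throughout.

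Over all 6 libraries, none of the 10 genes passed the test of edgeR, which asks for an adjusted p under 0.05 and a log2 change no smaller than 0.5 in either direction. All 10 were tested. Of the 11974 genes tested in all, 0.426% passed, 0.0251% as higher and 0.401% as lower in MSC-TPr. The fitted log2 fold change (MSC-TPr minus Ctl MSC) was above 0 for 8 genes (51.1% of all genes tested) and below 0 for Slc2a1 and Pfkp (48.9% of all), with a median of 0.43 against 0.01 for all genes tested. Only Aldoa had an unadjusted edgeR p under 0.05, and it was higher; of all genes 15.0% had one, 6.81% as higher and 8.23% as lower. DESeq2 called Aldoa alone, as higher, where it called 5.28% of the genes it tested, 1.89% as higher and 3.39% as lower. Aldoa was also the only gene of the 10 whose groups did not overlap; 10.6% of all genes tested were separated in that direction and 12.1% in the other.

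**Figure D1:**
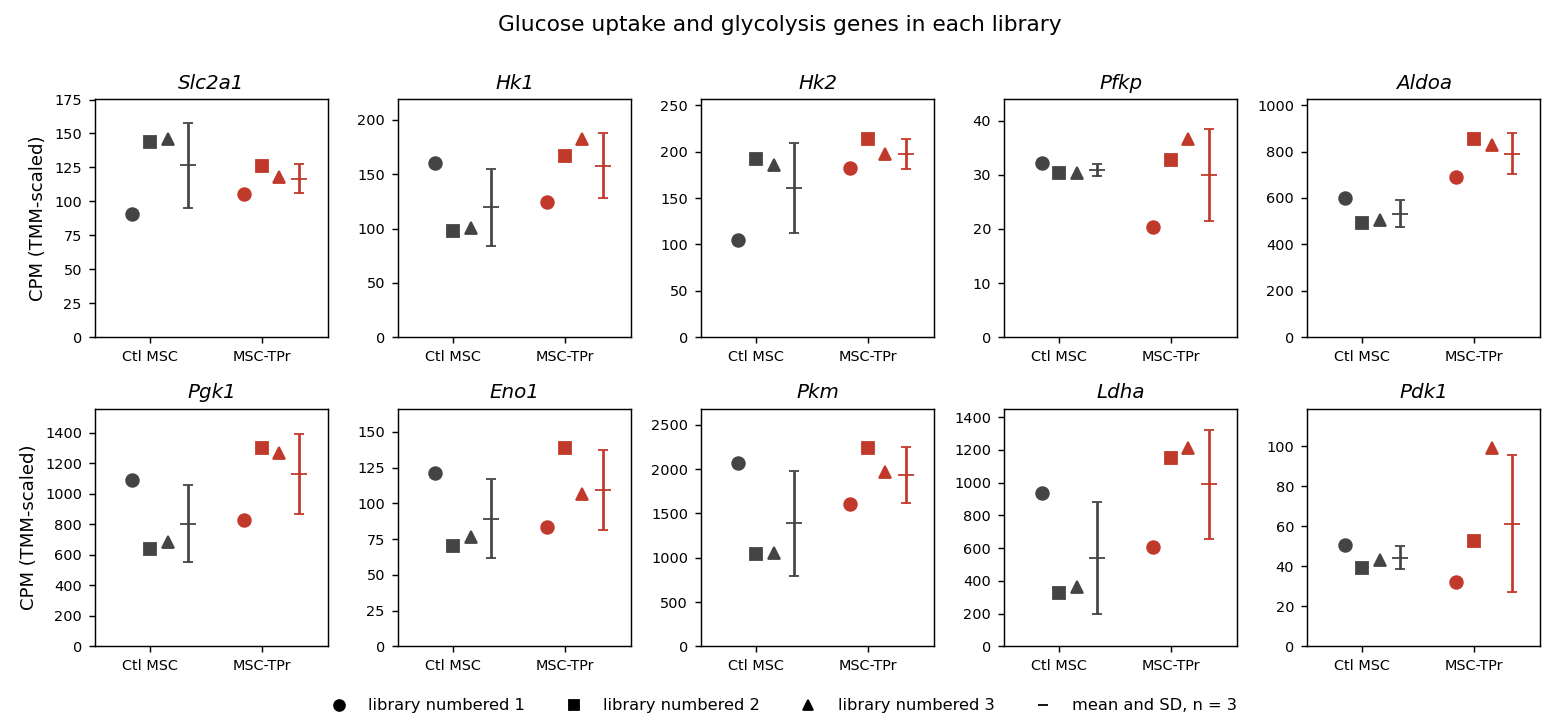
Each panel plots the CPM (TMM-scaled, linear axis from 0) of 1 gene in the 3 Ctl MSC libraries (grey) and the 3 MSC-TPr libraries (red), with the mean and SD (n = 3) beside them; the circle, square and triangle mark the libraries numbered 1, 2 and 3. In MSC-TPr the circle is the lowest point in all 10 panels, and in Ctl MSC it is the highest in 8 and the lowest for Slc2a1 and Hk2.

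Without the libraries numbered 1, 7 of the 10 genes passed the same edgeR test, all higher in MSC-TPr: Hk1, Aldoa, Pgk1, Eno1, Pkm, Ldha and Pdk1. Of all 12122 genes tested over these 4 libraries 20.6% passed as higher, and 40.0% passed in either direction. The median log2 fold change of the 10 genes was 0.79, against 0.00 for all genes. The common dispersion, edgeR's measure of the spread within groups, was 0.0168 over the 4 libraries and 0.124 over the 6. Ctl MSC 2 and 3, the only Ctl MSC libraries among the 4, were closer to each other than any other pair of a group. Their chi-square per gene was 4.97, against 52.6 to 201 for the other pairs within groups. The p-values over the 4 libraries may thus rest largely on technical spread, which was not tested. The libraries numbered 1 were left out because they stood apart in these same data. Calls and p-values over the 4 libraries, here and below, do not allow for that choice. The cell division genes differed between these same 4 libraries, as given above, and their part in the result was not tested. In bulk RNA, moreover, more cells in one state and more RNA per cell cannot be told apart.

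The order of libraries was shared by most of the 10 genes. All 10 were lower in MSC-TPr 1 than in MSC-TPr 2 and 3, and 8 were higher in Ctl MSC 1 than in Ctl MSC 2 and 3. MSC-TPr 2 and 3 were both above Ctl MSC 2 and 3 for 9 genes. The pair numbered 1 went the other way for 7 genes, with MSC-TPr 1 below Ctl MSC 1, and was higher in MSC-TPr 1 only for Slc2a1, Hk2 and Aldoa. The share of all genes with each of these orders was not computed. Calls over the 4 libraries, 20.6% of all genes as higher and 19.4% as lower, measure something other than these orders. Without a share for each order, the orders cannot be called particular to the 10 genes. In sum, reads on the 10 genes took 0.538%, 0.315% and 0.321% of the reads on genes across Ctl MSC 1, 2 and 3, against 0.433%, 0.600% and 0.585% across MSC-TPr 1, 2 and 3. The share thus ran higher in Ctl MSC 1 than in MSC-TPr 1, and lower in Ctl MSC 2 and 3 than in MSC-TPr 2 and 3.

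**Figure D2:**
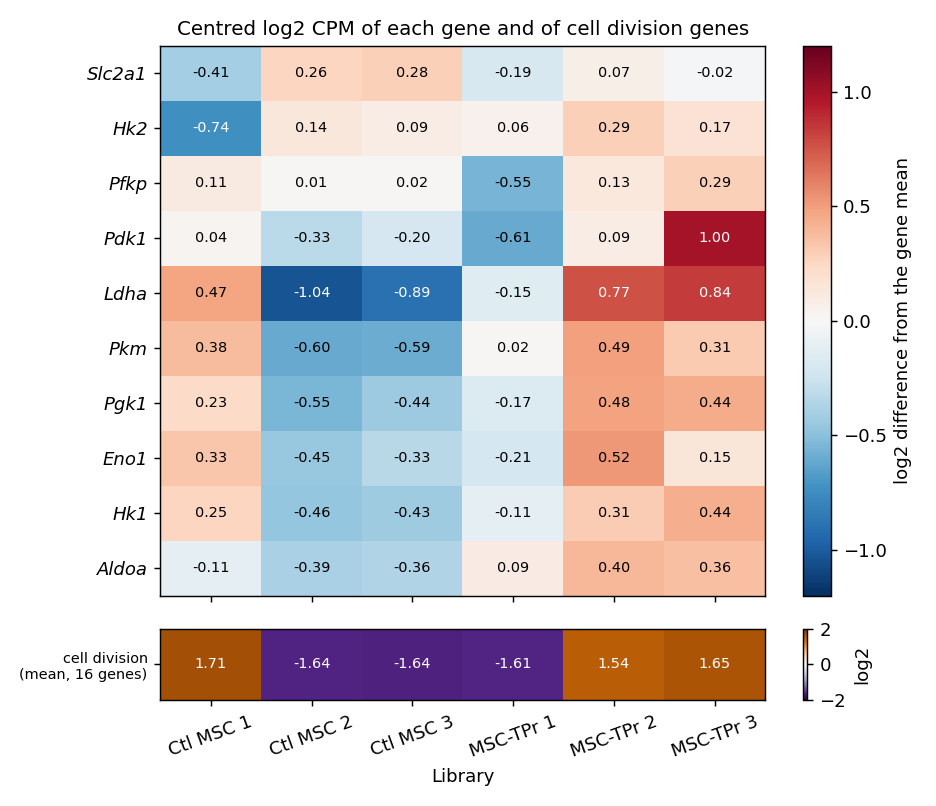
Each cell gives the log2 CPM of a gene (rows) in a library (columns) minus the mean of that gene over the 6 libraries, red above and blue below that mean; the lower strip gives the same for the mean of 16 cell division genes, on its own colour scale. Ctl MSC 2 and 3 are blue for Ldha, Pkm, Pgk1, Eno1, Hk1, Aldoa and Pdk1, whereas Ctl MSC 1 is blue for Slc2a1 (-0.41), Hk2 (-0.74) and Aldoa (-0.11).

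GLUT1, the basal glucose transporter of most cell types, is encoded by Slc2a1 (chr4:119108711-119137983, mm10, as for all genes below). It had 90.4, 143 and 146 CPM across Ctl MSC 1, 2 and 3, against 105, 126 and 118 CPM across MSC-TPr 1, 2 and 3. The groups overlapped, and the lowest library of each was the one numbered 1. The means were 126.6 ± 31.4 and 116.6 ± 10.7 CPM (SD, n = 3), with a log2 change of -0.12 (SE 0.22 and edgeR adjusted p = 0.839). Slc2a1 was the only gene of the 10 with MSC-TPr 2 and 3 below Ctl MSC 2 and 3, by -0.24 on the log2 scale (95% interval -0.51 to 0.03, edgeR adjusted p = 0.121).

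Hexokinase 1, the widely expressed form that sits on mitochondria (Hk1, chr10:62268855-62379908), had 161, 98.0 and 100.3 CPM across the Ctl MSC libraries, against 124, 167 and 182 CPM across the MSC-TPr libraries. Ctl MSC 1 lay among the MSC-TPr libraries. The log2 fold change was 0.40 (SE 0.26 and edgeR adjusted p = 0.514) for all 6 libraries, and without those numbered 1 it was 0.82 (SE 0.11 and edgeR adjusted p = 0.0029). Hexokinase 2 is the inducible form of muscle, fat and tumour cells (Hk2, chr6:82725025-82774454). It had 105, 192 and 186 CPM across the Ctl MSC libraries, against 182, 214 and 197 CPM across the MSC-TPr libraries, so that Ctl MSC 1 was the only low library and the other 5 lay close together. Its log2 fold change was 0.29 (SE 0.25 and edgeR adjusted p = 0.631), and 0.12 over 4 libraries (95% interval -0.16 to 0.40). The hexokinases thus had opposite orders within Ctl MSC, with Ctl MSC 1 at 1.62 times the mean of Ctl MSC 2 and 3 for Hk1 and at 0.556 times for Hk2.

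Pfkp (chr13:6579768-6648777) encodes 1 of the subunits of phosphofructokinase. It varied little across the Ctl MSC libraries, with 32.3, 30.3 and 30.3 CPM, but had 20.4, 32.8 and 36.6 CPM across MSC-TPr. Its lowest and highest libraries were both labelled MSC-TPr. The log2 fold change was -0.05 (SE 0.24 and edgeR adjusted p = 0.944), and it turned to 0.20 (95% interval -0.10 to 0.50) without the libraries numbered 1.

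Aldoa (chr7:126795234-126800751) encodes the aldolase that splits fructose-1,6-bisphosphate. It had 600.1, 493 and 504 CPM across the Ctl MSC libraries, against 690.2, 853 and 828 CPM across the MSC-TPr libraries. All 3 MSC-TPr libraries were above all 3 Ctl MSC libraries, although MSC-TPr 1 and Ctl MSC 1 were the nearest pair. The means were 532.5 ± 58.8 and 790.6 ± 87.9 CPM (SD, n = 3), with a log2 change of 0.57 (SE 0.17, 95% interval 0.16 to 0.98). The unadjusted p of 0.0142 gave an edgeR adjusted p = 0.216 over all genes, whereas the DESeq2 adjusted p was 0.0485. Leaving out 1 library at a time kept the log2 fold change between 0.52 and 0.67, and over 4 libraries it was 0.76 (edgeR adjusted p = 0.0041).

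Pgk1 (chrX:106187100-106203699) encodes the enzyme that makes the first ATP of glycolysis. It had 1093, 636 and 686 CPM across the Ctl MSC libraries, against 829, 1298 and 1265 CPM across the MSC-TPr libraries. Ctl MSC 1 was above MSC-TPr 1, so the groups overlapped. The log2 fold change of 0.49 (SE 0.29 and edgeR adjusted p = 0.482) became 0.96 (edgeR adjusted p = 0.0022) over 4 libraries. Eno1 (chr4:150236721-150248879), which encodes the enolase of most tissues, had 121, 70.5 and 76.5 CPM across the Ctl MSC libraries, against 83.2, 138 and 107 CPM across the MSC-TPr libraries. Its order of libraries was like that of Pgk1 except that MSC-TPr 3 stood below Ctl MSC 1, and its log2 fold change was 0.29 (SE 0.28 and edgeR adjusted p = 0.678) over 6 libraries and 0.74 (edgeR adjusted p = 0.0116) over 4.

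Counts of Pgk1 and Eno1 are uncertain. Of all 100-base windows of the Pgk1 transcript 67.0% were also found in other genes, mostly in Pgk1-rs7, and of those of Eno1 59.0% were, mostly in Eno1b. Alignments to more than 1 place, 5.89% to 8.92% of the listed reads, were kept out of the gene counts. Eno1b itself, under the older symbol Gm5506, was at 3.53 to 9.82 CPM. For Pfkp, 16.04% of the windows were shared with Pitrm1 on the opposite strand, and for Pkm 9.82% were shared with other genes. The strand setting of the counting is not given in the sources used here, so reads of Pfkp and Pitrm1 may not have been told apart.

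Pkm (chr9:59656368-59679375) encodes the pyruvate kinases of muscle and of dividing cells as splice forms of 1 gene, which gene counts do not separate. It had 2064, 1044 and 1052 CPM across the Ctl MSC libraries, against 1606, 2233 and 1967 CPM across the MSC-TPr libraries. Ctl MSC 1 was above both MSC-TPr 1 and MSC-TPr 3. The log2 fold change was 0.48 (SE 0.32 and edgeR adjusted p = 0.530) over 6 libraries and 1.01 (edgeR adjusted p = 0.0025) over 4.

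Ldha (chr7:46841475-46855627) spread most between libraries, with a highest level 3.69 times the lowest. It had 936, 328 and 363 CPM across the Ctl MSC libraries, against 609, 1149 and 1209 CPM across the MSC-TPr libraries. Ctl MSC 1 stood at 2.71 times the mean of Ctl MSC 2 and 3 and above MSC-TPr 1. The means of 542 ± 341 and 989 ± 330.2 CPM (SD, n = 3) gave a log2 change of 0.87 (SE 0.48, 95% interval -0.28 to 2.02, edgeR adjusted p = 0.452), larger than that of 96.4% of all genes tested yet not separable from 0. Over the 4 libraries numbered 2 and 3 it was 1.77 (95% interval 1.46 to 2.09, edgeR adjusted p = 0.00034), the largest of the 10. The cell division genes had the same order of the libraries numbered 1, with Ctl MSC 1 high and MSC-TPr 1 low, and their part in the levels of Ldha was not tested.

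Pdk1 (chr2:71873224-71903858) had 50.6, 39.4 and 43.0 CPM across the Ctl MSC libraries, against 32.4, 52.6 and 98.8 CPM across the MSC-TPr libraries. MSC-TPr 3 stood alone, at 98.8 CPM, above a range of 32.4 to 52.6 CPM in the other 5 libraries. The log2 fold change was 0.47 (SE 0.39 and edgeR adjusted p = 0.625), and without MSC-TPr 3 it was -0.05. Over 4 libraries it was 0.88 with an edgeR adjusted p = 0.0478, just inside the threshold.

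**Figure D3:**
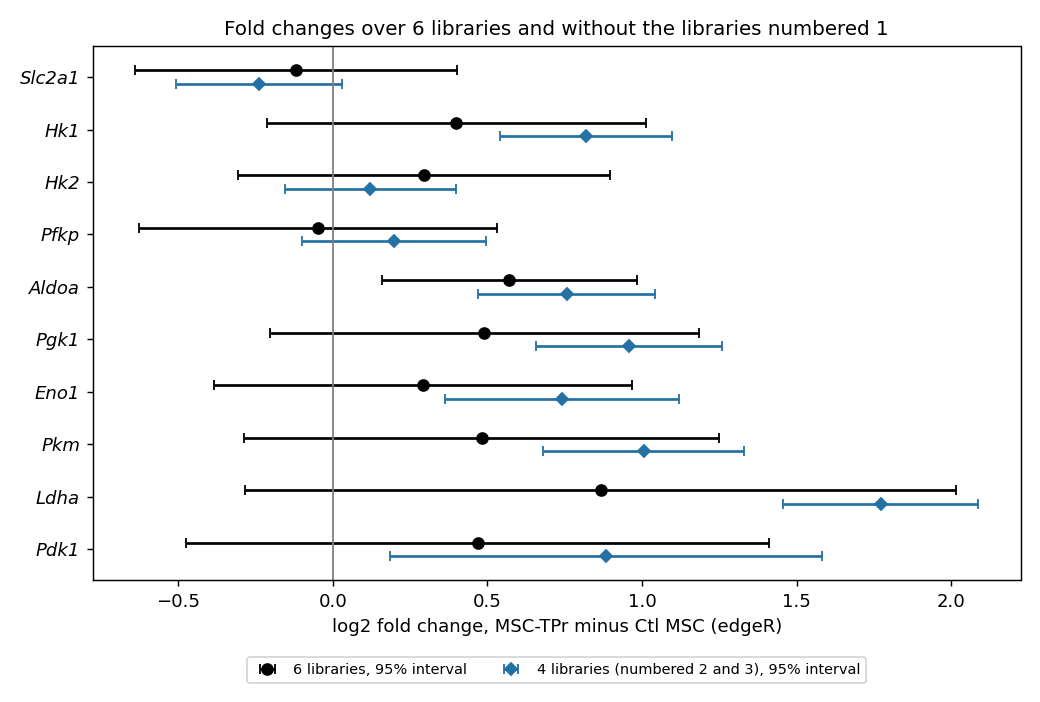
Points give the edgeR log2 fold change (MSC-TPr minus Ctl MSC) of each of the 10 genes over 6 libraries (black circles) and over the 4 libraries numbered 2 and 3 (blue diamonds), with 95% intervals that are not adjusted for the number of genes. Over 6 libraries only the interval of Aldoa lies off 0, whereas over 4 libraries those of Slc2a1, Hk2 and Pfkp are the ones that include 0.

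Levels of different genes were compared only per kilobase of transcript (RPKM from the longest coding transcript, mean over 6 libraries). Pkm (683), Pgk1 (530.3), Aldoa (427) and Ldha (422) formed the upper tier, ranking 91st to 131st of 19347 genes. Eno1 (49.1), Slc2a1 (37.3), Hk2 (32.5) and Hk1 (32.4) followed, with Pdk1 (10.2) and Pfkp (7.35) lowest. The levels of Eno1 and Pgk1 may be too low, and their places are uncertain. Other genes share 59.0% and 67.0% of their windows, and alignments to more than 1 place were not counted. Within the upper tier the ranges over libraries overlapped, and with the length of all merged exons in place of the transcript Pgk1 (431) came above Pkm (332). Hk1 and Hk2 likewise overlapped over libraries, and the merged length gave 16.3 for Hk1 and 30.0 for Hk2.

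Several steps are served by more than 1 gene, so the share of reads each member took among its relatives was compared for 5 steps. These shares are of reads, not corrected for length. Ldha took 97.0%, 92.3% and 93.0% of the reads on Ldha and Ldhb across Ctl MSC 1, 2 and 3, against 97.3%, 98.2% and 98.0% across MSC-TPr 1, 2 and 3. The MSC-TPr libraries were all above the Ctl MSC libraries, by 3.70 percentage points on average and by 5.401 without the libraries numbered 1, but Ctl MSC 1 (Wilson 95% interval 96.7% to 97.3%) and MSC-TPr 1 (97.0% to 97.6%) had overlapping counting intervals. An exact permutation test gave p = 0.1 (two-sided), the smallest that 3 against 3 libraries allows, and 0.25 after adjustment over the 5 shares. Ldhb, the form common in heart muscle and named here only for that share, was itself at 28.8, 27.2 and 27.4 CPM in Ctl MSC and at 16.8, 21.3 and 25.1 CPM in MSC-TPr, with a log2 change of -0.40 (SE 0.20 and edgeR adjusted p = 0.406) and of -0.23 without the libraries numbered 1. Wilson intervals cover counting error only.

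Slc2a1 took 97.8%, 97.8% and 98.0% of the reads on Slc2a1, Slc2a3 and Slc2a4 across the Ctl MSC libraries, against 99.8%, 99.5% and 99.5% across MSC-TPr. Here too the groups did not overlap and the exact permutation p was 0.1, or 0.25 adjusted over the 5 shares. The difference of 1.78 percentage points was 1.64 without the libraries numbered 1. Slc2a4, the insulin-responsive transporter GLUT4, had 1 read in all, so the share turns on Slc2a3, which had 3, 10 and 13 reads across MSC-TPr. The share leaves out Slc2a6, Slc2a8 and Slc2a10, named here because each had more reads than Slc2a3 in every library. With their reads included the groups overlapped, as the share in MSC-TPr 3 then fell below those in Ctl MSC 2 and 3. Slc2a10 had 326 reads in MSC-TPr 3, against 68 and 64 reads in Ctl MSC 2 and 3.

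Hk2 took 39.6%, 66.3% and 65.0% of the hexokinase reads on Hk1 and Hk2 across the Ctl MSC libraries, against 59.4%, 56.2% and 52.0% across MSC-TPr. Ctl MSC 1 was the lowest of the 6 and Ctl MSC 2 and 3 were the highest. The group means differed by -1.08 percentage points (exact permutation p = 1), and by -11.6 without the libraries numbered 1. Pfkp took 14.0% to 17.1% of the phosphofructokinase reads in every library, and its share differed by -1.54 percentage points between groups (exact permutation p = 0.2), or by -1.98 without the libraries numbered 1. Pdk1 took 54.8% of the reads on Pdk1, Pdk2, Pdk3 and Pdk4 in MSC-TPr 3 and 35.6% to 40.0% in the other 5 libraries (exact permutation p = 0.5). The group difference of 5.79 percentage points was 9.73 without the libraries numbered 1 and 0.374 without MSC-TPr 3.

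**Figure D4:**
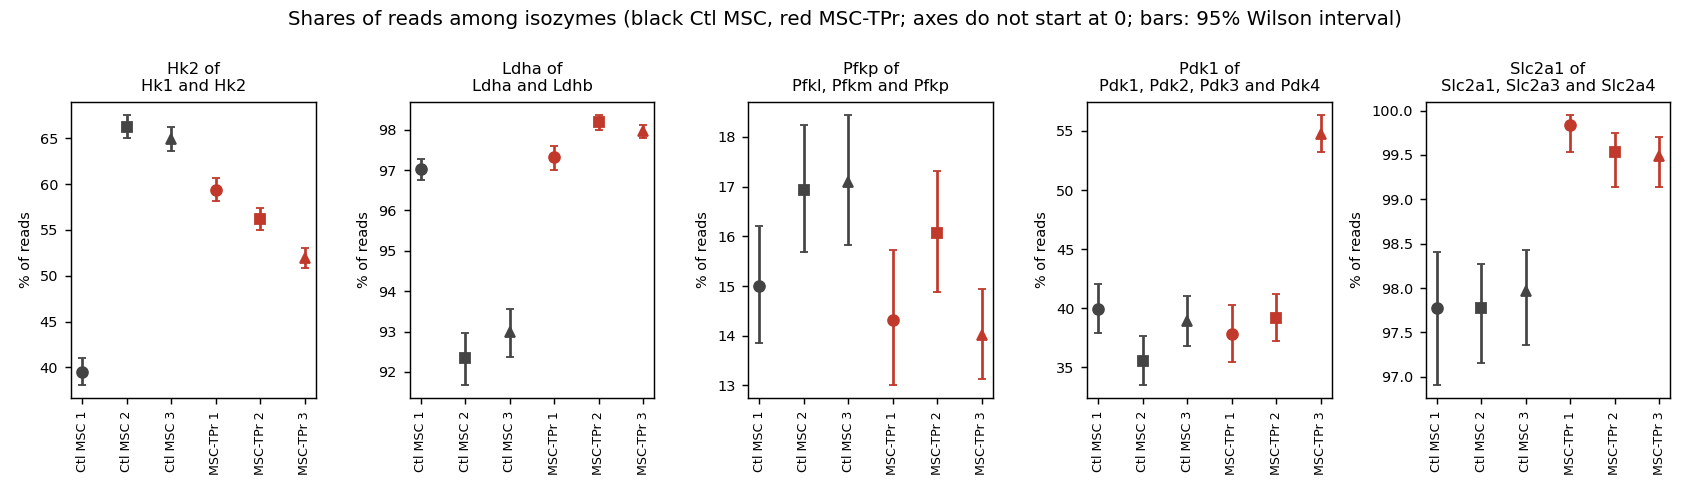
Each panel plots the percent of reads that 1 gene took among its isozymes in each library, Ctl MSC in black and MSC-TPr in red, with Wilson 95% intervals and axes that do not start at 0. The groups are separate for Ldha and for Slc2a1 (among Slc2a1, Slc2a3 and Slc2a4 only) and overlap for Hk2, Pfkp and Pdk1.

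The rest of the pathway was read from 10 lists with 107 genes, of which 81 were tested. None passed the edgeR test over 6 libraries, 18 were below an unadjusted p of 0.05 (15.0% of all genes tested were), and DESeq2 called 7 (5.28% of all genes it tested). The log2 fold changes were above 0 for 43 and below 0 for 38, with a median of 0.03, close to that of all genes. Over the 4 libraries 18 passed as higher and 21 as lower, beside 20.6% and 19.4% of all genes. The lists as a whole thus leaned to neither side.

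Among the other glycolytic enzymes 13 of 23 were tested, and over 4 libraries 5 passed as higher and 2 as lower (20.6% and 19.4% of all genes, as for each list below). Eno3, the muscle enolase, had 27.0, 8.06 and 7.89 CPM across the Ctl MSC libraries, against 21.8, 98.0 and 89.5 CPM across the MSC-TPr libraries. Its log2 fold change was the largest of the list at 2.29 (SE 0.73 and edgeR adjusted p = 0.230, DESeq2 adjusted p = 0.0194), with Ctl MSC 1 above MSC-TPr 1, and over 4 libraries it was 3.56 and passed the edgeR test. Eno2, the neuronal enolase, had the lowest value at -1.24 (SE 0.44 and edgeR adjusted p = 0.274), and it passed as lower over 4 libraries, at -1.93. Gapdh, the enzyme between aldolase and phosphoglycerate kinase, was chosen after its values were seen. It had 2171, 1240 and 1320 CPM across the Ctl MSC libraries, against 1782, 2736 and 2460 CPM across the MSC-TPr libraries, the same order of all 6 libraries as Pgk1. Its log2 fold change was 0.56 (edgeR adjusted p = 0.426), and 1.02 over 4 libraries, where it passed.

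Of 12 further glucose transporters only 4 were tested. Slc2a3, which encodes the high-affinity transporter GLUT3, had 2.05, 3.20 and 3.03 CPM across the Ctl MSC libraries, against 0.166, 0.592 and 0.603 CPM across the MSC-TPr libraries, where MSC-TPr 1 had 3 reads. All Ctl MSC libraries were above all MSC-TPr libraries, with a log2 change of -2.58 (SE 0.51 and edgeR adjusted p = 0.107, DESeq2 adjusted p = 0.00038), and of -2.37 over 4 libraries, where it passed the edgeR test. Slc2a10 had the highest value of the list, 1.10 (SE 0.48 and edgeR adjusted p = 0.338). It was 0.59 without MSC-TPr 3, and 1.73 over 4 libraries, where it passed. Of the enzymes that make and remove fructose-2,6-bisphosphate, the activator of phosphofructokinase, Pfkfb3 had the highest log2 fold change, 0.46 (SE 0.20 and edgeR adjusted p = 0.342), and 0.4983 over 4 libraries, just short of a call. It was at 21.3 to 26.4 CPM in Ctl MSC and at 27.3 to 38.8 CPM in MSC-TPr, without overlap, and Pfkfb2 had the lowest value, -0.26 over both 6 and 4 libraries.

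Lactate leaves cells through monocarboxylate transporters, some of which the chaperone basigin (Bsg) brings to the membrane. Bsg had the highest log2 fold change of the 6 carriers tested, 0.38 (SE 0.31 and edgeR adjusted p = 0.609). It was 0.70 without Ctl MSC 1, between 0.22 and 0.30 without Ctl MSC 2, Ctl MSC 3, MSC-TPr 2 or MSC-TPr 3, and 0.90 over 4 libraries, where it passed. Slc16a7 (MCT2) had 1.15, 2.03 and 2.37 CPM across the Ctl MSC libraries, against 0.111, 0.118 and 0 CPM across the MSC-TPr libraries, all below the 3-read limit there. It was lower in MSC-TPr (edgeR adjusted p = 0.0774, DESeq2 adjusted p = 6.1e-05) and passed the edgeR test over 4 libraries. Slc16a7 passed the filter on low counts only through its 19, 38 and 43 reads in Ctl MSC, so these tests are not separate evidence of a fall. Slc16a3 (MCT4), the lactate exporter of glycolytic cells and named here after its values were seen, had 74.2, 40.8 and 43.1 CPM across the Ctl MSC libraries, against 12.1, 20.1 and 25.9 CPM across the MSC-TPr libraries. Its log2 fold change of -1.44 (SE 0.36 and edgeR adjusted p = 0.172, DESeq2 adjusted p = 0.0105) ran opposite to that of Ldha, and its groups did not overlap. Over 4 libraries it was -0.86 and passed.

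All 11 genes of pyruvate dehydrogenase and its regulators were tested, and 2 passed as higher and 4 as lower over 4 libraries. Pdk4, the kinase induced by fasting, had 18.1, 32.4 and 30.3 CPM across the Ctl MSC libraries, against 5.70, 14.0 and 13.6 CPM across the MSC-TPr libraries. The groups did not overlap, and the log2 fold change was -1.28 (SE 0.41 and edgeR adjusted p = 0.230) for all 6 libraries, and -1.18 for 4, where it passed. Dld, the shared E3 subunit, had the highest value, 0.64 (SE 0.21 and edgeR adjusted p = 0.246), without overlap, and was at 0.41 over 4 libraries, where it was not called.

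Gluconeogenesis was represented by 4 tested genes, as Pck1, Fbp1, Fbp2 and G6pc had no read in any library. Pcx, the mitochondrial pyruvate carboxylase, had 57.6, 90.8 and 92.2 CPM across the Ctl MSC libraries, against 36.0, 31.1 and 28.9 CPM across the MSC-TPr libraries. Its libraries did not overlap, and its log2 fold change was -1.33 (SE 0.23 and edgeR adjusted p = 0.0774, DESeq2 adjusted p = 0.000196), -1.61 over 4 libraries, and -1.51 without Ctl MSC 1, and it passed the edgeR test in both of these. Pck2 was at 0.11 (SE 0.29), and 0.30 over 4 libraries, a direction that depended on the libraries included. In the pentose phosphate pathway, Taldo1 (transaldolase) was highest at 0.66 (SE 0.20 and edgeR adjusted p = 0.223) and H6pd lowest at -0.79 (SE 0.23 and edgeR adjusted p = 0.213), both without overlap. Over 4 libraries they were at 0.45 and -0.74, and neither was called.

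Hif1a, the regulated subunit of HIF-1, was named after its values were seen. It had 337, 159 and 164 CPM across the Ctl MSC libraries, against 225, 403 and 457 CPM across the MSC-TPr libraries, an order of libraries that matched that of Ldha. The log2 fold change was 0.72 (SE 0.39 and edgeR adjusted p = 0.448), and 1.42 over 4 libraries, where it passed. Egln3, a prolyl hydroxylase that marks HIF for degradation and is itself a HIF target, had 5.86, 5.50 and 5.96 CPM across the Ctl MSC libraries, against 13.1, 12.5 and 16.3 CPM across the MSC-TPr libraries. Its groups did not overlap, and MSC-TPr 1 was above Ctl MSC 1, which was not so for Hif1a. Its log2 fold change was 1.27 (SE 0.20 and edgeR adjusted p = 0.0739, DESeq2 adjusted p = 1e-05) for all 6 libraries, and 1.33 for 4, where it passed.

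Arnt2 had the lowest value of the HIF list, -1.29 (SE 0.32 and edgeR adjusted p = 0.168, DESeq2 adjusted p = 0.0213), without overlap, and -0.92 over 4 libraries, where it passed. The 17 other hypoxia-responsive genes, Egln3 among them, were divided. Their median log2 fold change was 0.03, and over 4 libraries 5 passed as higher and 6 as lower. Adm, which encodes the vasodilator adrenomedullin, was lowest at -1.35 (SE 0.65 and edgeR adjusted p = 0.385). That value rested on Ctl MSC 1, at 41.3 CPM against 13.4 and 12.9 CPM in Ctl MSC 2 and 3, and it was -0.57 without that library and -0.21 over 4 libraries. Among 6 tested regulators of glycolysis Arrdc4 was highest at 0.56 (SE 0.27 and edgeR adjusted p = 0.384), and 0.60 over 4 libraries, where it was not called. Ppargc1a, a coactivator of mitochondrial genes, was lowest at -2.79 (SE 1.23 and edgeR adjusted p = 0.3497). Ppargc1a had 41, 244 and 228 reads across the Ctl MSC libraries, against 66, 2 and 6 reads across MSC-TPr. MSC-TPr 1 was above Ctl MSC 1. The log2 fold change was -5.47 without MSC-TPr 1, and -5.90 over 4 libraries, where it passed the edgeR test. Both values rest on the few reads of MSC-TPr 2 and 3, with MSC-TPr 2 below the 3-read limit.

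**Figure D5:**
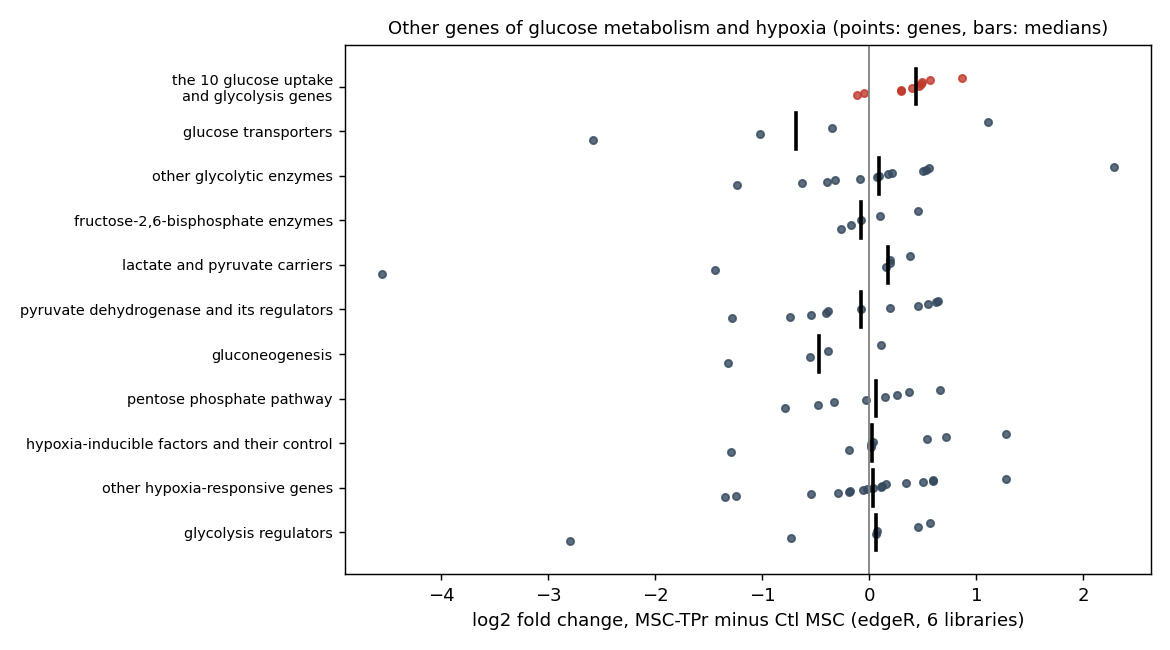
Points give the edgeR log2 fold change (MSC-TPr minus Ctl MSC, 6 libraries) of each tested gene of the 10 genes described and of the 10 other pathway lists, with a vertical offset that only spreads the points. The 10 genes lie between -0.12 and 0.87, whereas the other lists spread to both sides of 0.

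Genes with the most similar profile were sought among 9100 genes outside the 10, by the mean absolute difference in centred log2 CPM over the 6 libraries. Akt1 came nearest to Aldoa (0.022), followed by Kctd5 (0.035). Prkrir and Lpcat2 were nearest to Hk1 (0.033 and 0.035), Ywhah and Fert2 to Pgk1 (0.037 and 0.040), Cfl1 and Hnrnpab to Eno1 (0.035 and 0.037), and Atox1 and Gm12070 to Pkm (0.036 and 0.054). For Ldha the nearest were Pmepa1 (0.040) and Il4ra (0.072), for Slc2a1 Atxn7 (0.041) and Xpot (0.045), for Hk2 Mafk (0.065) and Btaf1 (0.072), and for Pfkp Tmem214 (0.033) and Nek6 (0.042). Pdk1 had the most distant neighbours, Pxdn (0.113) and Arhgap31 (0.116). Within the 10, Hk1 and Pgk1 were the closest pair (0.059), and Slc2a1 lay no nearer than 0.216 to any other, which was Hk2.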

How the data were processed

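Libraries were prepared by the submitters from polyadenylated RNA of bone marrow MSCs with a stranded kit and sequenced paired-end. The deposited values are raw counts, not normalized, which the authors made with Htseq-count from reads aligned to mm10. The submitters' processing notes name CASAVA 1.8.2, Trimmomatic 0.35 and TopHat2 2.1.0. The annotation and the strand setting are not given in the sources used here. The 5 summary rows of Htseq-count, 13.8% to 20.8% of the listed reads, were kept out of library sizes and tests.

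Samples were grouped by their titles, 3 per group. Counts were tested with edgeR 4.0.16 in R 4.3.3 (TMM, filterByExpr, quasi-likelihood test, group only, Benjamini-Hochberg adjustment over all genes tested), after a check on simulated data. DESeq2 1.42.0 was the alternative tool. A call needed an adjusted p under 0.05 together with a log2 change no smaller than 0.5 in either direction. Further alternatives were other scalings, filters on low counts, a replicate block, each library left out, and both libraries numbered 1 left out. The isozyme shares without libraries and the merged exon length were alternatives chosen after seeing the data. Both libraries numbered 1 were left out because they stood apart from their groups in these same data. Within a group no 2 libraries were copies of each other, and pairs across the groups were not checked. Ctl MSC 2 and 3 were the closest pair of a group. Their chi-square per gene was 4.97, against 52.6 to 201 for the other pairs within groups.

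CPM are scaled by TMM and RPKM divide them by lengths from GENCODE M21 (GRCm38, the same assembly as mm10), which also gave gene coordinates. Promoters came from RefSeq (GRCm38.p6). The members and lists were chosen with earlier results of these data known. The genes named were the 10 members, the highest and lowest fold change of each list and any gene called, and for each member the 2 nearest profiles among genes with a mean log2 CPM of at least 3. Genes outside this rule, other than cell type markers, are marked in the text.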

Additional observations from a re-analysis of the deposited data

How the results depend on the processing

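Over 6 libraries 51 genes were called by edgeR, 3 higher and 48 lower in MSC-TPr. With at least 10 counts in every library 31 were called (29 lower), without MSC-TPr 1 and Ctl MSC 1 together 4854 (2498 higher, 2356 lower), and by DESeq2 683 (244 higher, 439 lower). Leaving out 1 library at a time gave 0 to 108 calls (0 to 11 higher, 0 to 105 lower), with 108 without Ctl MSC 1, 44 without MSC-TPr 1, 1 without MSC-TPr 2, and 0 without Ctl MSC 2, Ctl MSC 3 or MSC-TPr 3, where 927, 925 and 1547 genes were under an unadjusted p of 0.05. The 10 members had 0 calls under every edgeR alternative over 5 or 6 libraries, 7 over the 4 libraries and 1 (Aldoa) by DESeq2. The pathway lists had 39 calls over the 4 libraries, 7 by DESeq2, and 0 to 1 with 1 library left out, the 1 being Pcx without Ctl MSC 1. Other scalings moved the median of all genes by at most -0.04 (log2) and changed no call of a member.

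Replicate numbers did not pair the libraries, as the deviations of same-numbered libraries correlated at -0.765, -0.594 and -0.604. With the replicate block 0 genes were called (776 under an unadjusted p of 0.05), and log2 fold changes of the members were -0.09 for Slc2a1, 0.43 for Hk1, 0.34 for Hk2, -0.09 for Pfkp, 0.57 for Aldoa, 0.51 for Pgk1, 0.31 for Eno1, 0.55 for Pkm, 1.01 for Ldha and 0.33 for Pdk1.

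Direction changed in few cases, and the cause was not tested. With 1 library left out Pfkp ranged from -0.21 to 0.17 (0.17 without MSC-TPr 1) and was at 0.20 over the 4 libraries. Pdk1 ranged from -0.053 (without MSC-TPr 3) to 0.77, and Pck2 from -0.065 (without MSC-TPr 2) to 0.38, with -0.0039 without MSC-TPr 3. The Hk2 share of hexokinase reads differed by -9.77 to 3.58 percentage points. Depth did not limit the 10 members. It did limit Slc16a7, Slc2a3 and Psmb11, which had few reads, and Ppargc1a in MSC-TPr 2 and 3.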
